A study of Mus musculus with 107 samples.

Results

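The genes described are the nuclear genes of the mitochondrial respiratory chain, measured in mouse ear skin 24 h after sulfur mustard. They were taken by name: each gene whose single symbol on the arrays starts with Ndufa, Ndufb, Ndufc, Ndufs, Ndufv, Uqcr, Sdh, Atp5 or Cox4 to Cox8, leaving out Cox6a2 and the Ndufaf assembly factors. This gave 85 of the 18194 genes with a symbol of their own on either array, and each gene was represented by its probe set with the highest mean signal. The rule uses names and overall signal. The names also bring in the assembly factors of complex II, Sdhaf1, Sdhaf2, Sdhaf3 and Sdhaf4, which are not subunits of the enzyme.

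Sulfur mustard, bis-(2-chloroethyl) sulfide, is an alkylating blister agent. In the mustard group 0.08 mg (0.5 µmol) in 5 µL of methylene chloride was put on the inner surface of the right ear (5 ears), and the left ears of the mustard-exposed animals had methylene chloride alone and are called vehicle ears (21 ears). Right ears of other animals had a drug in ethanol 15 min before the mustard: dimercaprol (6.25 mg, 50.3 µmol, 6 ears), a dithiol chelator, indomethacin (1.34 mg, 3.74 µmol, 6 ears), a cyclooxygenase inhibitor, or octylhomovanillamide (OHV, 5 ears), whose dose is labelled as 0.6 mg per treatment and as 0.585 mg (1.995 µmol) in the protocol text. All these ears were measured on array A and array B. On array A alone stood animals without mustard: 5 naive ears of 3 animals, 3 left ears with ethanol, and right ears with dimercaprol (4), indomethacin (4) or octylhomovanillamide (5) alone. Each sample was RNA of a whole 8 mm ear biopsy, so fewer cells of a type and less RNA per cell cannot be told apart. The labels give no strain, sex or age, and drug and ethanol came together in each pretreated ear, so that these cannot be told apart, and no pretreatment is named for the mustard group.

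The respiratory chain sits in the inner mitochondrial membrane. Complex I takes electrons from NADH and complex II from succinate, coenzyme Q passes them to complex III, cytochrome c carries them to complex IV, which reduces oxygen, and complex V makes ATP from the proton gradient. Most subunits are encoded in the nucleus and the catalytic centres of several complexes are encoded in mitochondrial DNA. Heart and skeletal muscle hold many mitochondria and use their own isoforms of several complex IV subunits, and ear skin contains a layer of striated muscle, so that the muscle share of a biopsy matters for these genes.

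Signals were scaled so that each array had the same trimmed mean, and differences are given on the scale of log2(scaled signal + 16). Of the 85 genes, 80 had their chosen probe set on array A and 5 on array B. A mean scaled signal of at least 100 was required, which 79 genes of array A and 4 of array B reached. Cox7c (mean 93.2) and Cox7b2 (mean 90.3) fell short and were not tested, and Cox6b2 (mean 119) lay just above the limit. Over the vehicle ears alone Cox6b2 was below the limit, so in this series it passed only through the ears given mustard. Of the 79, 70 had a mean of at least 1000, so calls were also set against all probe sets that bright. The deposited trimmed means ran from 66.9 to 137.4 on array A in the mustard ears and from 111.5 to 221.8 in the vehicle ears, so the mustard arrays were dimmer. A Gapdh measure of RNA integrity, signal at the 3′ end over that at the 5′ end on the log2 scale, reached 0.78 in the mustard ears and 0.24 in the vehicle ears. On array A it was 0.63 and 0.78 in mustard animals 5 and 37 and at most 0.08 in the other mustard ears. These ears also had the dimmest arrays of the group, with trimmed means of 86.28 and 66.9.

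With mustard more of these genes were higher than lower under the main scaling of the arrays. Atp5md, Ndufb6 and Atp5k led, apart from Cox6b2, which passed the filter only through the ears given mustard. On array A 30 of 79 genes rose and 3 fell (limma, Benjamini-Hochberg adjusted p below 0.05 over all probe sets kept), that is 38.0% and 3.80%. Over all probe sets of array A 19.9% rose and 24.5% fell, and over those with a mean of at least 1000 the shares were 28.5% and 29.4%. The members' median difference was 0.15, against −0.01 over all probe sets. The differences were mostly small: 4 of the 33 called genes changed by more than 1.5-fold, and Cox6b2 alone reached 2-fold. The 5 mustard ears and the 21 vehicle ears did not overlap for 3 genes (3.80%), Ndufb6, Sdhaf1 and Cox6b2, all higher with mustard. Over all probe sets 2.37% lay wholly higher and 1.74% wholly lower. Cox6b2 is counted here and among the 30 rises although it passed the filter only through the ears given mustard. Without it the share of genes without overlap was near that of all probe sets. On array B Sdhaf3 fell, where 13.2% of all probe sets fell, and Ndufb4, Uqcrh and Ndufa4l2 did not pass. In the plot of differences by complex called rises stand in every panel, but in complex II only for the assembly factors Sdhaf1 and Sdhaf4 and for no subunit.

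**Figure D1:**
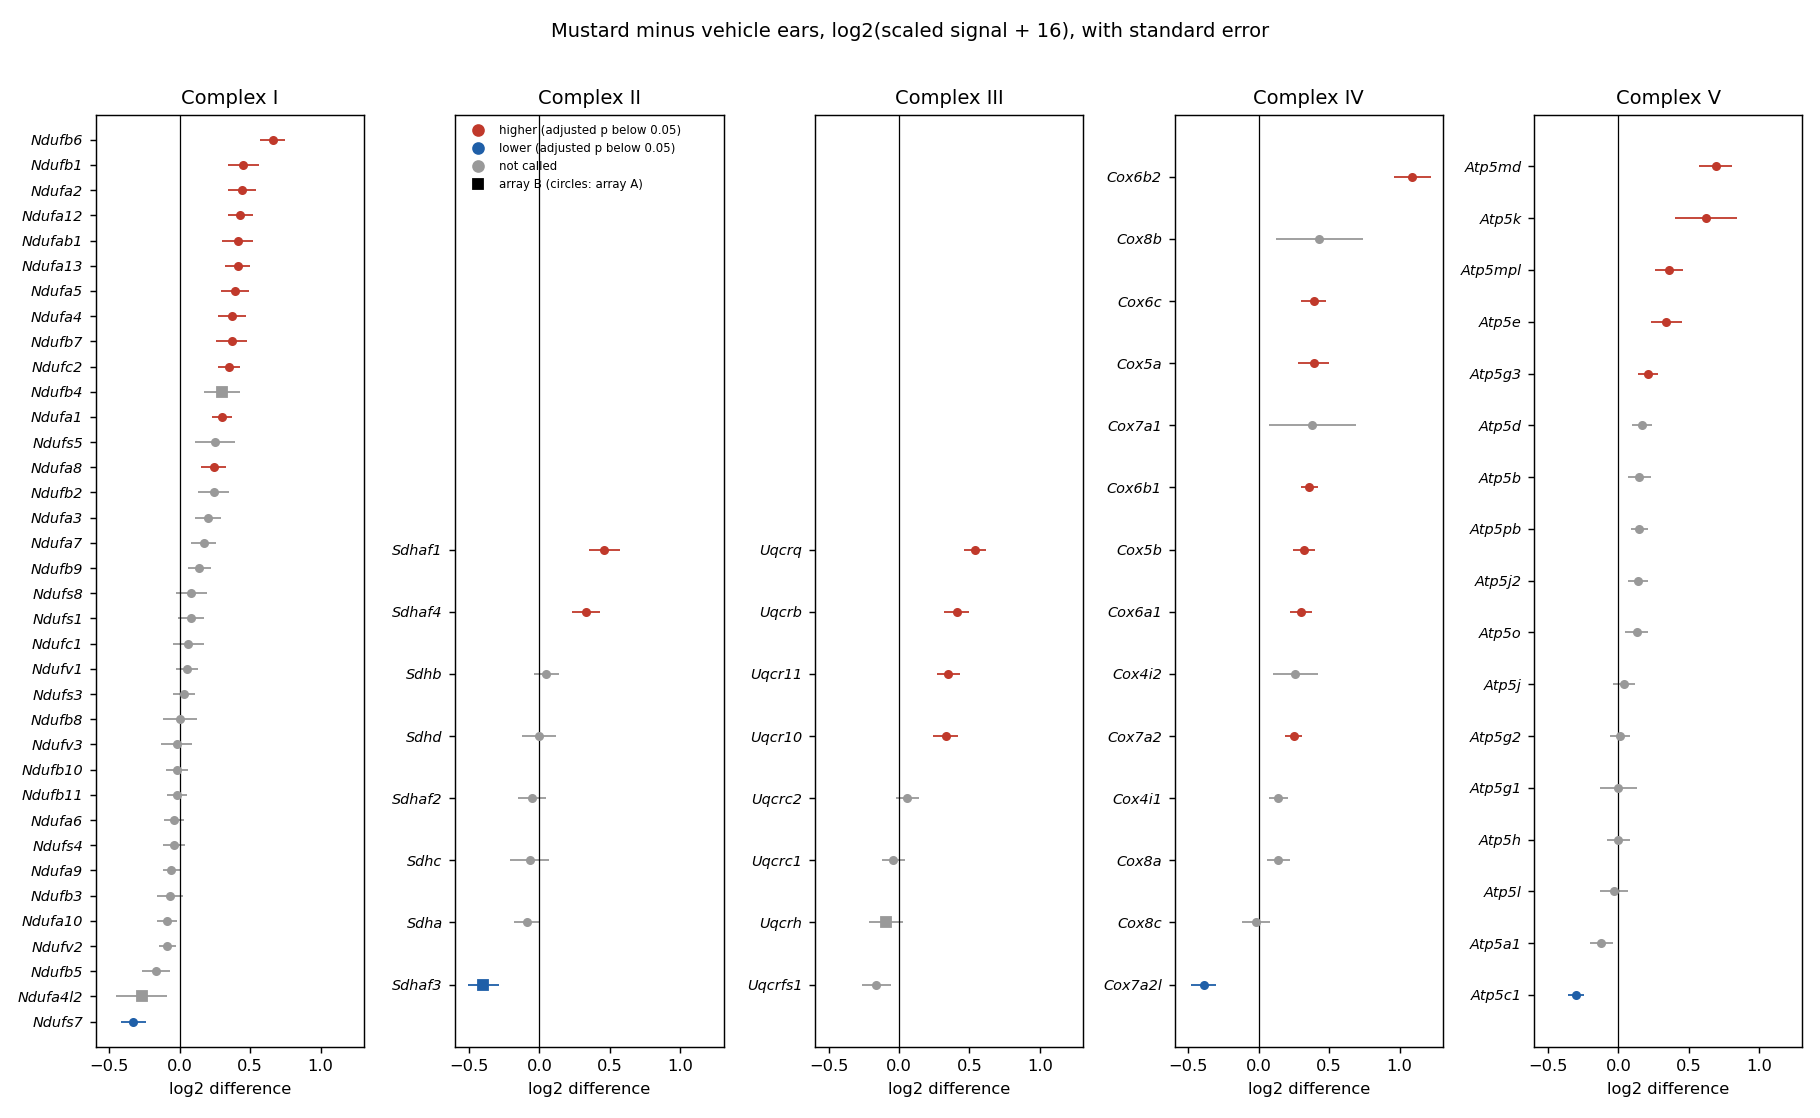
Difference between mustard and vehicle ears for each tested gene, in panels by complex (x axis: log2 difference; bars: standard error). Red genes were higher and blue genes lower at an adjusted p below 0.05, grey genes were not called, and squares are array B. Cox6b2 at 1.09 lies farthest to the right, and the called falls lie between −0.30 and −0.40.

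Complex I, the NADH dehydrogenase, had 12 of its 34 genes on array A higher and 1 lower, with a median of 0.11. These were 35.3% and 2.94%, against 19.9% and 24.5% of all array A probe sets. Among bright probe sets, those with a mean of at least 1000, the shares were 28.5% and 29.4%. The shares of the other complexes are read against the same values. Ndufb6, an accessory subunit of the membrane arm, gave 2771, 2808, 3125, 3570 and 3772 in the mustard ears and 1558 to 2365 (median 2056) in the vehicle ears, so every mustard ear lay above every vehicle ear. The difference was 0.66 ± 0.09 (log2, SE; adjusted p 5e-08 by limma). In the animals with both ears measured the right ear exceeded the left by 0.74, 1.07, 0.31 and 0.30. Ndufb1 (0.45 ± 0.11) and Ndufa2 (0.44 ± 0.10), both accessory subunits, were the next largest rises. Ndufs7, which carries an iron-sulfur cluster next to the quinone site, fell by 0.33 on the log2 scale (SE 0.09, adjusted p 0.0017 by limma). Another of its probe sets gave 0.13 and was not called, and the median difference over its probe sets was −0.10. The median of their adjusted p-values lay above 0.05, which is no test of its own. The core subunits Ndufs1 (0.08 ± 0.09) and Ndufv1 (0.05 ± 0.08), which bind iron-sulfur clusters and flavin at the NADH end, did not pass the test.

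Complex II, succinate dehydrogenase, had calls in its assembly factors and none in its subunits. On array A 2 of its 7 genes were higher (28.6%, against 19.9% of all and 28.5% of bright probe sets) and none lower. Sdhaf1, which serves the insertion of iron-sulfur clusters into Sdhb, gave 667, 674, 735, 767 and 793 in the mustard ears against 419 to 642 (median 529) in the vehicle ears, with no overlap. The difference was 0.46 ± 0.11 (adjusted p 0.000484 by limma). Sdhaf4, which acts on the flavin subunit, rose by 0.33 ± 0.10, and Sdhaf3 on array B fell by 0.40 on the log2 scale (SE 0.11). None of the enzyme's own subunits was called: Sdha, the flavin subunit, differed by −0.09 ± 0.09 and Sdhb, the iron-sulfur subunit, by 0.05 ± 0.09.

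Complex III, the cytochrome bc1 complex, had 4 of 7 genes higher (57.1%) and none lower, with a median of 0.33. The 4 were small subunits without a redox centre. Uqcrq gave 5021, 5103, 6300, 7105 and 7728 in the mustard ears and 3664 to 5147 (median 4261) in the vehicle ears, with the lowest mustard ears inside the vehicle range, and differed by 0.54 ± 0.08 (adjusted p 1.35e-06 by limma). Its other probe sets gave 0.28, 0.20 and 0.07, and none of these was called. Uqcrb, a subunit at the quinone-binding side, rose by 0.41 ± 0.09, Uqcr11 by 0.35 ± 0.08 and Uqcr10 by 0.33 ± 0.09. The core protein Uqcrc1 (−0.04 ± 0.08) and the Rieske iron-sulfur protein Uqcrfs1 (−0.16 ± 0.10) were not called.

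Complex IV, cytochrome c oxidase, had 7 of 14 genes higher (50%) and 1 lower (7.14%), with a median of 0.31. Cox6b2, the testis form of a subunit that faces cytochrome c, had the largest difference of all the genes. It was tested only because the ears given mustard raised its mean over the filter, so its call is no independent support for a rise. Its signal was low, at 169, 186, 226, 245 and 274 in the mustard ears and 57.7 to 122 (median 89.2) in the vehicle ears, with no overlap. The difference was 1.09 ± 0.13 (adjusted p 1.53e-08 by limma), a ratio of 2.13 on this scale. The common form Cox6b1 rose by 0.36 ± 0.06, Cox6c by 0.39 ± 0.09 and Cox5a, a nuclear-encoded matrix-side subunit, by 0.39 ± 0.11. Cox7a2l, which takes part in supercomplexes, gave 2363, 2432, 2909, 2929 and 3010 against 2957 to 4413 (median 3546) and fell by 0.39 on the log2 scale (SE 0.09). Cox4i1, the common form of the largest nuclear subunit, differed by 0.14 ± 0.07 and was not called, nor were Cox4i2 (0.26 ± 0.16) and Cox8c (−0.02 ± 0.10).

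Complex V, ATP synthase, had 5 of 17 genes higher (29.4%) and 1 lower (5.88%), with a median of 0.14. Its share of rises was near the 28.5% of bright probe sets. Atp5md, a small subunit of the membrane part, gave 1433, 1838, 2074, 2542 and 3171 in the mustard ears and 998 to 1750 (median 1303) in the vehicle ears, where animal 1 stayed within the vehicle range, and differed by 0.69 ± 0.12 (adjusted p 1.5e-05 by limma). The highest Atp5md values, 2542 and 3171, came from animals 37 and 5, the mustard ears with the highest Gapdh measure. Atp5k, the e subunit at the dimer interface, differed by 0.62 ± 0.22 (adjusted p 0.0178 by limma). Its mustard ears fell into 5383 and 5770 against 10160, 13930 and 15770, and without the ears of animals 5 and 37 the difference was 0.17 (adjusted p 0.663 by limma). Without animal 5 alone it was 0.48 and without animal 37 alone 0.43, and either omission ended the call. Atp5mpl, another small membrane subunit, rose by 0.36 ± 0.10. Atp5c1, the rotor subunit of the catalytic head, gave 4597, 5398, 5662, 6191 and 6210 against 6154 to 7709 (median 6736) and fell by 0.30 on the log2 scale (SE 0.06). Its other probe set gave −0.06 and was not called, and the median difference was −0.18. Atp5a1 (−0.12 ± 0.08) and Atp5b (0.15 ± 0.08), further subunits of the catalytic head, did not pass the test.

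**Figure D2:**
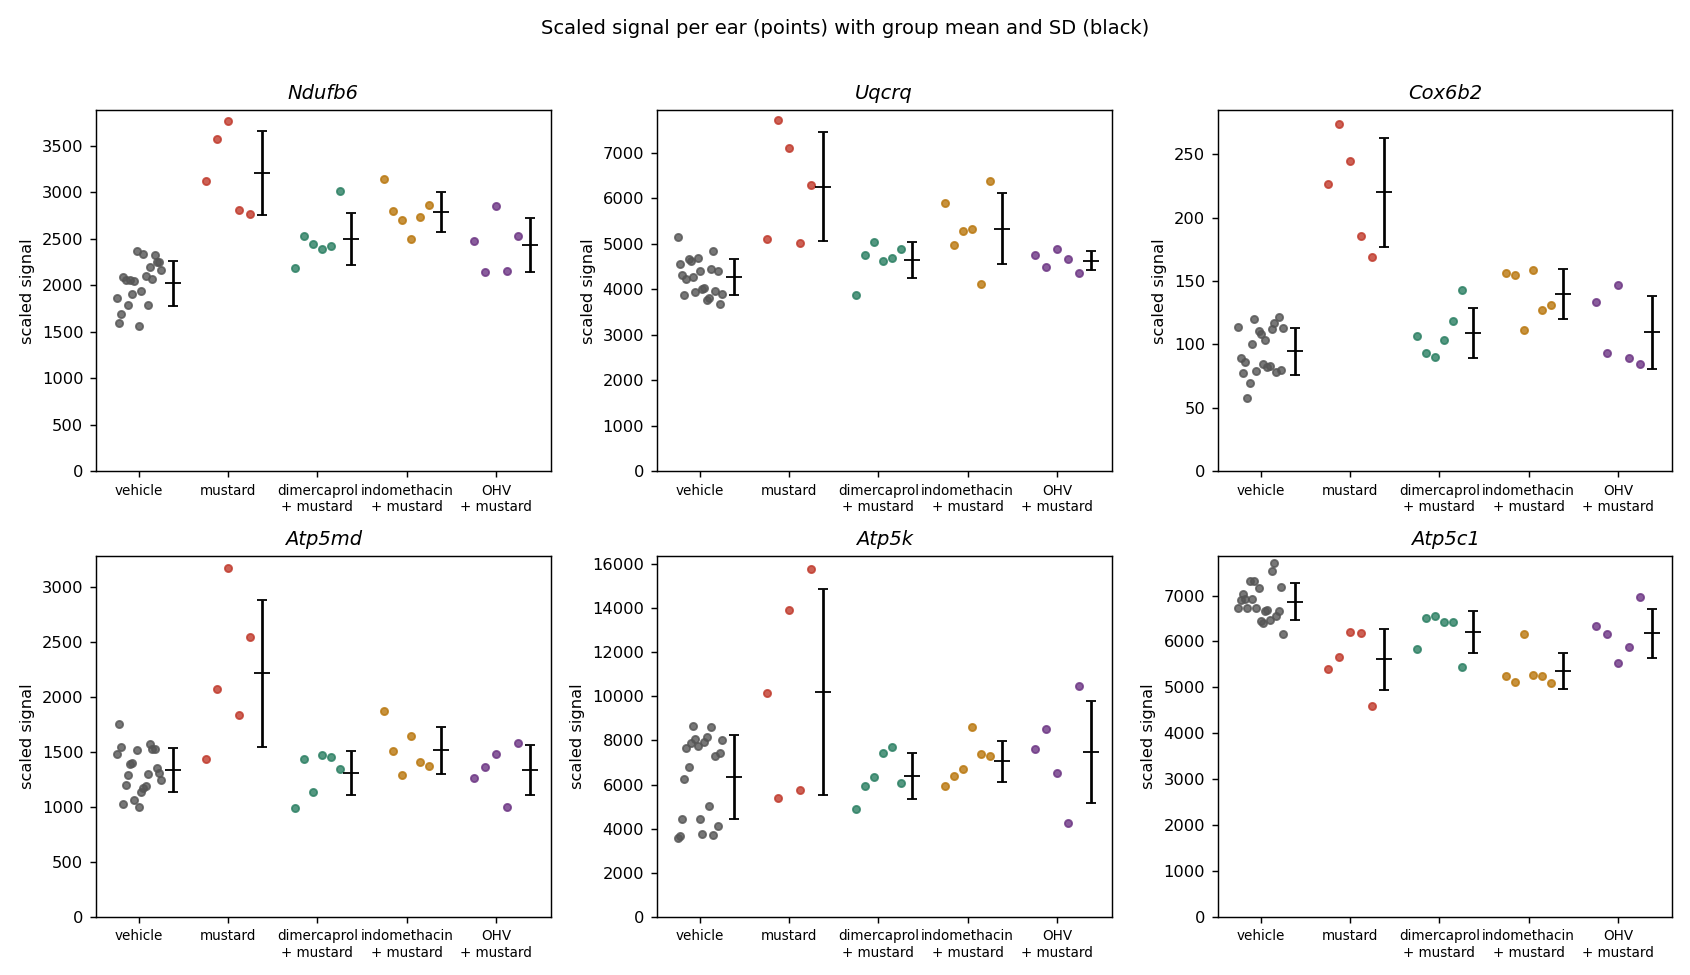
Scaled signal of every ear (points; y axis from 0) for 6 genes in the vehicle, mustard and drug-then-mustard groups (OHV is octylhomovanillamide), with group mean and SD in black. For Ndufb6 and Cox6b2 all 5 mustard points lie above all vehicle points, and for Atp5c1 they lie mostly below.

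Where a called gene had other probe sets, they mostly ran the same way: for 19 such genes 29 of 31 other probe sets had the same sign, 17 were called in that direction, and none was called in the opposite one.

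The size and the sign of the group's shift changed with the way the arrays were put on a common scale. With the deposited values left unscaled, 1 gene rose and 48 fell (1.27% and 60.8%, against 1.83% and 66.5% of all probe sets), at a median of −0.48 against −0.53. Quantile normalization gave 20 higher and 6 lower (25.3% and 7.59%, against 20.4% and 23.7%), so that the share of rises was near that of all probe sets, at a median of 0.02 against 0.00. Scaling on the 164 probe sets that A and B have in common gave 19 and 9 (24.1% and 11.4%, against 11.6% and 32.8%) at 0.01 against −0.14. A covariate for RNA integrity (the Gapdh measure) gave 16 and 2 (20.3% and 2.53%, against 12.2% and 15.8%), and one for array brightness 17 and 3 (21.5% and 3.80%, against 12.4% and 16.7%). The mustard ears of animals 5 and 37 had the highest Gapdh measure and the dimmest arrays of their group. Leaving them out gave 14 and 2 (17.7% and 2.53%, against 11.2% and 14.8%).

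The left and right ears of an animal pair the samples. A fit blocked on the animal used the 17 animals with both ears, dropped the rest, and gave 12 higher and 3 lower (15.2% and 3.80%, against 11.3% and 15.0% of all probe sets), so that the share of rises was near that of all probe sets. Of the genes named above it ended the calls of Sdhaf4 (0.19), Sdhaf3 (−0.28), Uqcr11 (0.25), Cox6c (0.19), Cox5a (0.26), Atp5mpl (0.16) and Cox6b1 (0.24), and of Cox7a2 (0.09). In the 4 mustard animals with both ears measured, the right ear had the higher signal for 27, 53, 45 and 51 of the 79 genes in animals 1, 3, 36 and 37, with medians of −0.09, 0.12, 0.05 and 0.17.

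Taking for each ear the median over the 79 genes of its level minus the gene's vehicle mean, the vehicle ears lay between −0.26 and 0.11 and the mustard ears at 0.00, 0.07, 0.09, 0.22 and 0.37. The highest were animals 3 and 5, and the other 3 mustard ears lay inside the vehicle range, so the groups overlapped.

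**Figure D3:**
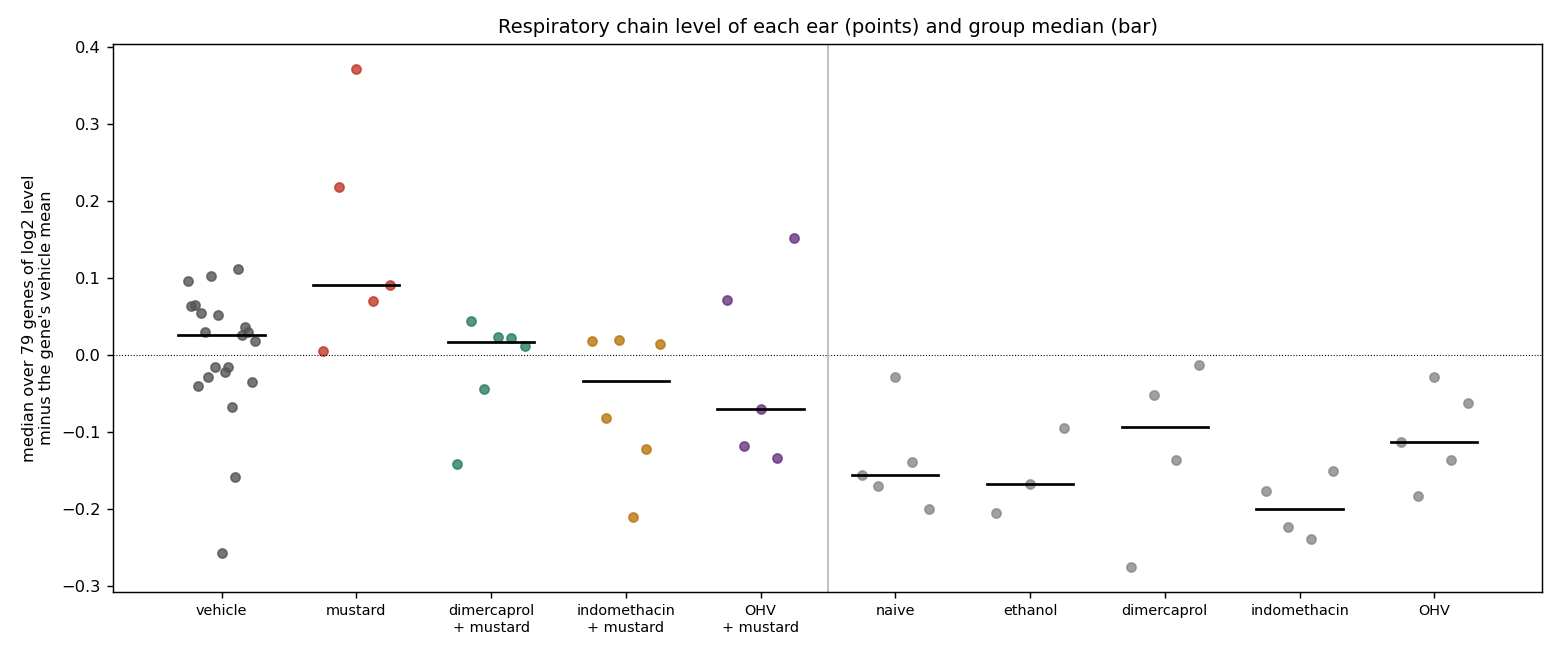
Respiratory chain level of every ear on array A (y axis: median over 79 genes of the log2 level minus the gene's mean in vehicle ears; black bars: group medians; OHV is octylhomovanillamide). Mustard ears reach 0.37, and ears of the animals without mustard, right of the grey line, lie between −0.28 and −0.01.

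Other mitochondrial gene lists are read against the 19.9% of all array A probe sets that rose with mustard and the 24.5% that fell. Several lists also hold genes measured on array B, where 13.2% of all probe sets fell, so the array A shares are only a rough guide. The mitochondrial ribosome, which translates the subunits encoded in mitochondrial DNA, had 24 of 71 genes higher and 2 lower, with a median of 0.17. Its leading rises were Mrpl39 (1.01 ± 0.12), Mrpl52 (0.84 ± 0.10) and Mrps25 (0.78 ± 0.10). Of the assembly factors of the chain 10 of 43 rose, among them the complex I factor Ndufaf4 (0.75 ± 0.13) and the complex III factor Uqcc2 (0.58 ± 0.10), and 6 fell, among them Acad9 (−1 ± 0.16) and Nubpl (−0.71 ± 0.11), which serve complex I. Cycs, which encodes cytochrome c, rose by 0.86 ± 0.11, while Etfa (−0.57 ± 0.09) and Etfdh (−0.58 ± 0.13), which feed electrons from fatty acid oxidation into coenzyme Q, fell, in a list of electron carriers and coenzyme Q genes with 3 of 19 higher and 4 lower. The shares of the assembly and carrier lists lay near or below those of all array A probe sets.

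In fatty acid oxidation 1 of 15 rose and 8 fell, with a median of −0.29, led by Echs1 (−0.82 ± 0.12), Acadm (−0.75 ± 0.12) and Cpt1a (−0.71 ± 0.13). In the tricarboxylic acid cycle 2 of 19 rose and 6 fell, with a median of −0.20, led by Suclg2 (−0.69 ± 0.09), Idh2 (−0.79 ± 0.16) and Pcx (−0.45 ± 0.12), while Dlst (0.50 ± 0.11) and Mdh2 (0.33 ± 0.10) rose. In glycolysis 5 of 19 rose and 3 fell. Carriers and porins had 3 of 9 higher, led by the phosphate carrier Slc25a3 (0.46 ± 0.06), and 1 lower. Of 18 regulators of mitochondrial biogenesis 4 rose, among them Pprc1 (0.69 ± 0.11), Gabpb1 (0.41 ± 0.11) and Esrra (0.30 ± 0.09), and 3 fell: Ppara (−1.64 ± 0.24), Gabpa (−0.69 ± 0.11) and Tfb1m (−0.73 ± 0.16). For the tricarboxylic acid cycle the share of falls, and for the biogenesis list the shares in both directions, were near those of all array A probe sets.

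Marker genes of other cell types changed with mustard as well, which does not tell cell number from RNA per cell. They are read against the same 19.9% of all array A probe sets higher and 24.5% lower, although some of these lists also hold array B genes. The share of macrophage rises and both shares of the suprabasal markers lay near these. The summed signal of 9 neutrophil markers ran from 5950 to 41100 in the mustard ears and from 1950 to 4460 in the vehicle ears, and 5 of 8 tested markers rose and 1 fell. The sum of 7 adipocyte markers ran from 3630 to 11500 against 7440 to 15200, and 3 of 5 fell. Of 8 basal keratinocyte markers 2 rose and 4 fell (median −0.55), of 10 suprabasal ones 2 rose and 3 fell, and of 6 sebaceous gland markers 4 fell (median −0.51). Of 10 macrophage markers 2 rose, of 6 cartilage markers 1 fell, and no call was made among 8 fibroblast and 5 endothelial markers. No defining marker of these lists was listed at 0, and the part of these cells in the respiratory chain differences was not tested. Of 4 tested brown adipocyte markers 2 fell (median −0.20), with the sum of 6 markers at 9780 to 14300 in mustard and 11700 to 20600 in vehicle ears. Ucp1, the defining gene of brown fat, had medians of 14 in vehicle and 12.7 in mustard ears, below the filter.

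Ears given a drug before mustard were compared with ears given mustard alone. These comparisons share the 5 mustard ears with each other and with the comparison above, so they are not independent. With dimercaprol none of the 79 genes was higher and 20 were lower (25.3%), where 16.4% of all probe sets were higher and 11.6% lower, and 21.4% and 17.7% among bright ones. The median was −0.14. With octylhomovanillamide none was higher and 20 were lower, where 11.2% of all probe sets were higher and 6.99% lower, and 14.5% and 12.9% among bright ones. The median was −0.16. With indomethacin none was higher and 10 were lower (12.7%), where 1.37% of all probe sets were higher and 0.777% lower, and 2.05% and 1.97% among bright ones. The median was −0.23.

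**Figure D4:**
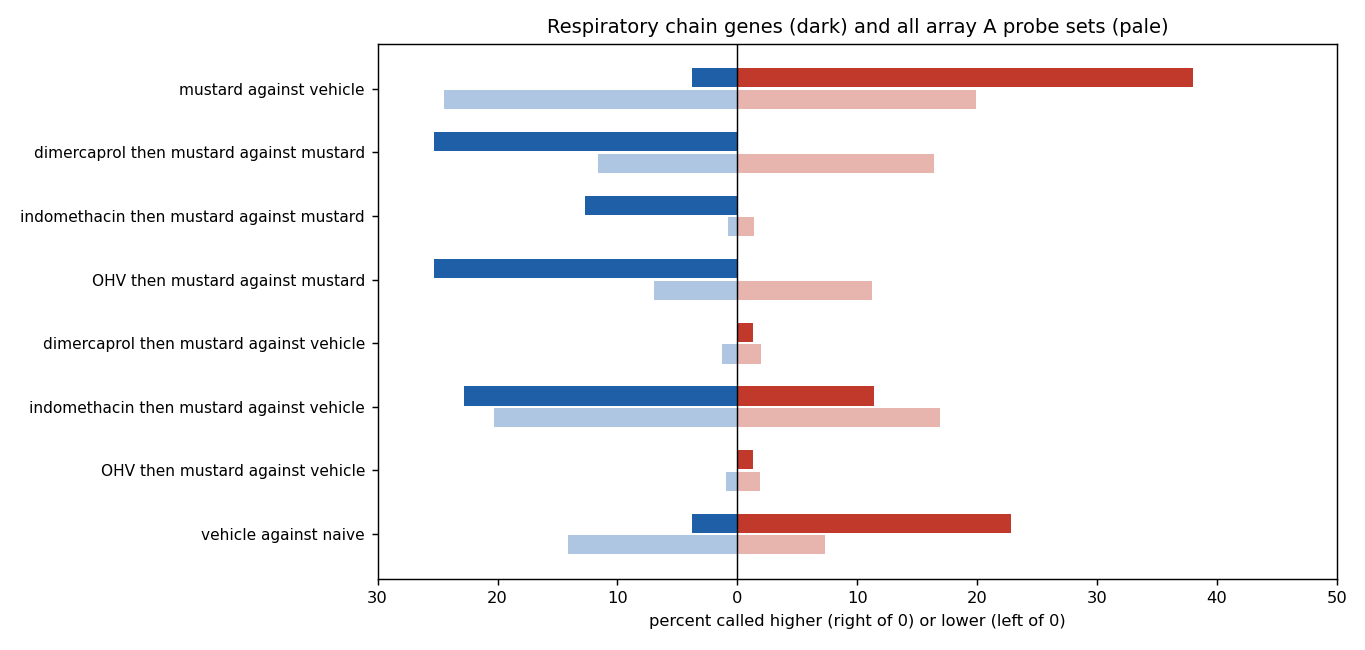
Percent of genes called higher (right of 0) or lower (left of 0) in each comparison, for the 79 respiratory chain genes (dark) and for all array A probe sets kept (pale); OHV is octylhomovanillamide. With mustard against vehicle 38.0% of the genes were higher, and none was higher in the comparisons with mustard alone.

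Cox6b2, which passed the filter only through ears given mustard, had the largest difference with dimercaprol, at −0.91 ± 0.16 (adjusted p 7.41e-05 by limma). Its signal after dimercaprol and mustard was 90.0 to 143 (median 105), below every mustard ear. After octylhomovanillamide and mustard it was 84.4, 89.3, 93.3, 133 and 147, also below every mustard ear, with a difference of −0.92 ± 0.17. After indomethacin and mustard it was 111 to 159 (median 143), with a difference of −0.59 ± 0.16. Atp5md differed by −0.72 ± 0.15 with dimercaprol and by −0.69 ± 0.16 with octylhomovanillamide. Uqcrb gave 12570 to 16310 (median 14630) with dimercaprol against 17470 to 26050 with mustard alone, without overlap, a difference of −0.50 ± 0.10, and with octylhomovanillamide the difference was −0.46 ± 0.11. Ndufa2 was lower with dimercaprol and with indomethacin (each −0.45 ± 0.12), and Ndufa5, another accessory subunit of complex I, with octylhomovanillamide (−0.46 ± 0.13). With indomethacin Ndufv3, a small subunit next to the NADH site, differed by −0.62 ± 0.13 and Ndufa13 by −0.54 ± 0.12. On array B Sdhaf3 was higher with dimercaprol, by 0.47 ± 0.14.

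By complex, the genes lower with dimercaprol were 5 of 34 in complex I, none of 7 in complex II, 4 of 7 in complex III, 6 of 14 in complex IV and 5 of 17 in complex V. With octylhomovanillamide they were 5, none, 4, 8 and 3, and with indomethacin 5, none, 1, 4 and none. Over all probe sets 11.6% were lower with dimercaprol, 6.99% with octylhomovanillamide and 0.777% with indomethacin. Among bright ones the shares were 17.7%, 12.9% and 1.97%. The complex I share with dimercaprol and with octylhomovanillamide (14.7% each) was near that of bright ones, as was complex V with octylhomovanillamide (17.6%). The skeletal muscle markers had no call in these comparisons, with medians of −0.29 for dimercaprol, −0.37 for indomethacin and −0.30 for octylhomovanillamide. Neutrophil markers were lower for 5 of 8 with dimercaprol, for 4 with octylhomovanillamide and for none with indomethacin.

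These counts changed with the processing. In the fit blocked on the animal none of the 79 genes was called for any of the 3 drugs. Over all probe sets 1.28% were higher and 0.862% lower for dimercaprol in that fit, and none for the others. With array brightness as a covariate 1 was lower with dimercaprol (1.27%), 1 with octylhomovanillamide (1.27%) and none with indomethacin. Over all probe sets 0.79%, 0.0324% and 0% were then lower, in the same order. Unscaled, all calls ran the other way, with 73 genes higher for dimercaprol (92.4%, against 83.5% of all probe sets), 53 for octylhomovanillamide (67.1% against 69.4%) and 7 for indomethacin (8.86% against 34.6%). Quantile normalization gave 4 higher and 8 lower with dimercaprol (5.06% and 10.1%, against 15.8% and 11.2%), 1 and 5 with octylhomovanillamide (1.27% and 6.33%, against 9.94% and 6.73%) and 0 and 3 with indomethacin (3.80% lower, against 0.434%). The share lower was thus near that of all probe sets for dimercaprol and octylhomovanillamide. Scaling on the common probe sets gave 5 and 5 (6.33% each, against 27.7% and 5.34%), 2 and 5 (2.53% and 6.33%, against 18.8% and 3.24%), and 0 and 2 (2.53% lower, against 0.402%). Leaving out 1 ear moved the count most for indomethacin: it was 0 without mustard animal 5 or 37 or indomethacin animal 19, 1 without indomethacin animal 17, 2 without 21, 4 without mustard animal 3 or indomethacin animal 18, and 21 or 22 without mustard animal 36 or 1. For octylhomovanillamide it was 10 without mustard animal 5, 13 without octylhomovanillamide animal 28 and 12 without animal 30. The share over all probe sets was not taken for these omissions, so these swings cannot be told from swings over the whole array. Without the mustard ears of animals 5 and 37 together, indomethacin called none of the 79 genes and 0% of all probe sets.

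Against vehicle ears, dimercaprol and mustard left 1 of 79 genes called, Ndufb6, at 0.31 ± 0.08 (adjusted p 0.0196 by limma), a call lost in the fit blocked on the animal (0.33, adjusted p 0.401 by limma), where 1.93% of all probe sets were higher and 1.27% lower. Ndufb6 read 2186 to 3019 (median 2438) there, overlapping the vehicle ears. Without dimercaprol animal 8 or 12 no gene was called, and without animal 9 there were 2. Octylhomovanillamide and mustard also left 1, Sdhaf1, at 0.38 ± 0.11, also lost when blocked on the animal (0.40, adjusted p 0.126 by limma), where 1.90% were higher and 0.965% lower. Its signals were 633, 637, 650, 656 and 878. Without octylhomovanillamide animal 27, 29 or 30 no gene was called, and without animal 33 the one call was a fall. Indomethacin and mustard gave 9 higher (11.4%) and 18 lower (22.8%), where 16.9% of all probe sets were higher and 20.3% lower, so neither share stood far from that of all probe sets.

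The rises with indomethacin and mustard against vehicle were led by Ndufb1 (0.58 ± 0.10), Cox6b2 (0.51 ± 0.12), Sdhaf1 (0.49 ± 0.10) and Ndufb6 (0.47 ± 0.08). Ndufb6 read 2496 to 3143 (median 2767), above every vehicle ear. The falls were led by Ndufv3 (−0.64 ± 0.10) and Cox7a2l (−0.41 ± 0.08) on array A, Sdhc, a membrane anchor of complex II (−0.39 ± 0.13), and Ndufa4l2 on array B (−0.62 ± 0.17), a relative of Ndufa4 that is known to be induced in low oxygen. Complex I, with 34 of the 79 genes, held 12 of the 18 falls on array A (35.3% of its genes, against 20.3% of all probe sets). With the muscle level of the ear as a covariate 14 were higher and 13 lower (17.7% and 16.5%, against 16.8% and 20.6% of all probe sets). In the fit blocked on the animal 8 and 6 were (10.1% and 7.59%, against 10.0% and 9.84%), without Cox6b2 (0.48) and Sdhc (−0.25). The shares in both settings were near those of all probe sets.

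Without mustard, the drugs left these genes without a call. Dimercaprol, indomethacin and octylhomovanillamide against ethanol, and ethanol against naive, called none of the 79 genes and 0% of all array A probe sets by limma (0% in each of the 4 comparisons). At an unadjusted p under 0.05 the members numbered 2, 2, 5 and 1 of 79. Of the 16570 probe sets kept, 788, 1183, 1042 and 527 did so, and the members' shares were near or below these.

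Vehicle ears differed from naive ears although neither had mustard. Of the 79 genes 18 were higher in vehicle ears (22.8%) and 3 lower (3.80%), where 7.34% of all probe sets were higher and 14.1% lower, with a median of 0.13. Among bright probe sets 12.3% were higher and 3.05% lower, so the share of falls was near theirs. Quantile normalization gave 9 higher (11.4%, against 9.15% of all probe sets), so that the share of rises was near theirs, and 3 lower (3.80%, against 8.33%). Scaling on the common probe sets gave 11 higher (13.9%, against 5.08%) and 3 lower (3.80%, against 16.4%). The ears of a naive animal were averaged before this test, which left 3 naive replicates. Atp5l, a membrane subunit of ATP synthase, read 2701 to 3426 in the 5 naive ears and 3916 to 5493 (median 4584) in the vehicle ears, with no overlap, and differed by 0.62 ± 0.12 (adjusted p 0.000398 by limma). Atp5e (0.49 ± 0.12), Ndufc2 (0.44 ± 0.11) and Ndufb3 (0.42 ± 0.11) followed. Lower were the tissue isoforms Cox4i2 (−0.72 ± 0.19) and Cox8c (−0.69 ± 0.13), and Sdhaf2 (−0.49 ± 0.11). Cox8c read 879 to 1086 in naive ears and 437 to 730 (median 575) in vehicle ears. The naive animals belong to the separately numbered set without mustard, so methylene chloride, a mustard-treated ear on the same animal and the set of animals cannot be told apart. The ear medians of that whole set were −0.28 to −0.01.

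The muscle content of the biopsies varied widely. Its measure was the mean log2 signal of skeletal muscle markers on array A, which was 10.91 ± 0.57 (SD, n = 21) in vehicle ears, with the lowest at 9.17 in animal 19, and 10.97 ± 0.31 (n = 5) in mustard ears. All of the defining markers Acta1, Ckm, Mylpf, Tnnt3 and Atp2a1 were present in every vehicle and mustard ear. Of 37 muscle markers none rose with mustard and 2 fell, with a median of 0.05. With the muscle level as a covariate the members called with mustard were 34 higher and 3 lower, against 30 and 3 without it. The shares were 43% and 3.8% with the covariate, against 21% and 25.7% of all probe sets. Without it they were 38% and 3.8%, against 19.9% and 24.5%, so calls over all probe sets were also more frequent with it.

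Over the 21 vehicle ears, 14 of 78 genes rose with the muscle level and none fell, where 6.00% of all probe sets rose and 1.65% fell. Cox8b gained 1.16 ± 0.09 and Cox7a1 1.12 ± 0.06 log2 units per unit of muscle level, that is in near proportion to the markers (adjusted p 3.38e-10 and 1.39e-12 by limma). Both encode the heart and skeletal muscle forms of complex IV subunits. Next were Sdhc (0.38 ± 0.07) and Atp5g1 (0.36 ± 0.06), a gene for the ring subunit of ATP synthase. Their common counterparts showed no slope that passed: Cox7a2 had 0.00 ± 0.04 and Cox8a 0.05 ± 0.06. Without vehicle animal 19 the count was 4, and the share over all probe sets was not taken for that omission. Unscaled it was 2 (2.56%, against 3.24% of all probe sets), so the members' share did not exceed that of all probe sets. After quantile normalization it was 23 (29.5%, against 5.69%). The Gapdh ratio had no called slope for any of the 78 genes, where 0.0195% and 0.0911% of all probe sets rose and fell. Of the 78, 11 were under an unadjusted p of 0.05, near the share of all probe sets (2026 of 15373).

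In single ears, Cox7a1 ran from 141 to 1121 (median 658) over the vehicle ears, with the lowest in animal 19, and Cox8b from 423 to 4224 (median 2289). In the mustard ears Cox7a1 gave 404, 655, 754, 1263 and 1287 and Cox8b 1529, 2414, 2446, 4114 and 4181, inside the vehicle range except the highest Cox7a1 values. Neither passed the test (0.38 ± 0.31 and 0.43 ± 0.31), and with the muscle level as a covariate the differences were 0.32 (adjusted p 0.00953 by limma) and 0.36 (adjusted p 0.00875 by limma). Cox7a2 gave 10670 to 14550 in mustard ears and 9443 to 12160 in vehicle ears, a difference of 0.25 ± 0.06, which was 0.00 after quantile normalization. Cox8a differed by 0.14 ± 0.08. The genes most like Cox7a1 over the 21 vehicle ears by Pearson correlation on array A were Cox8b (0.977), Ak1 (0.970), Eno3 (0.968), Tpm1 (0.967) and Myoz1 (0.965). For Cox7a2 they were Cox6c (0.736), Atp5g3 (0.700), Sftpc (0.681), Scd1 (0.677) and Cntnap4 (0.674). The points share arrays and RNA of the same biopsies.

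**Figure D5:**
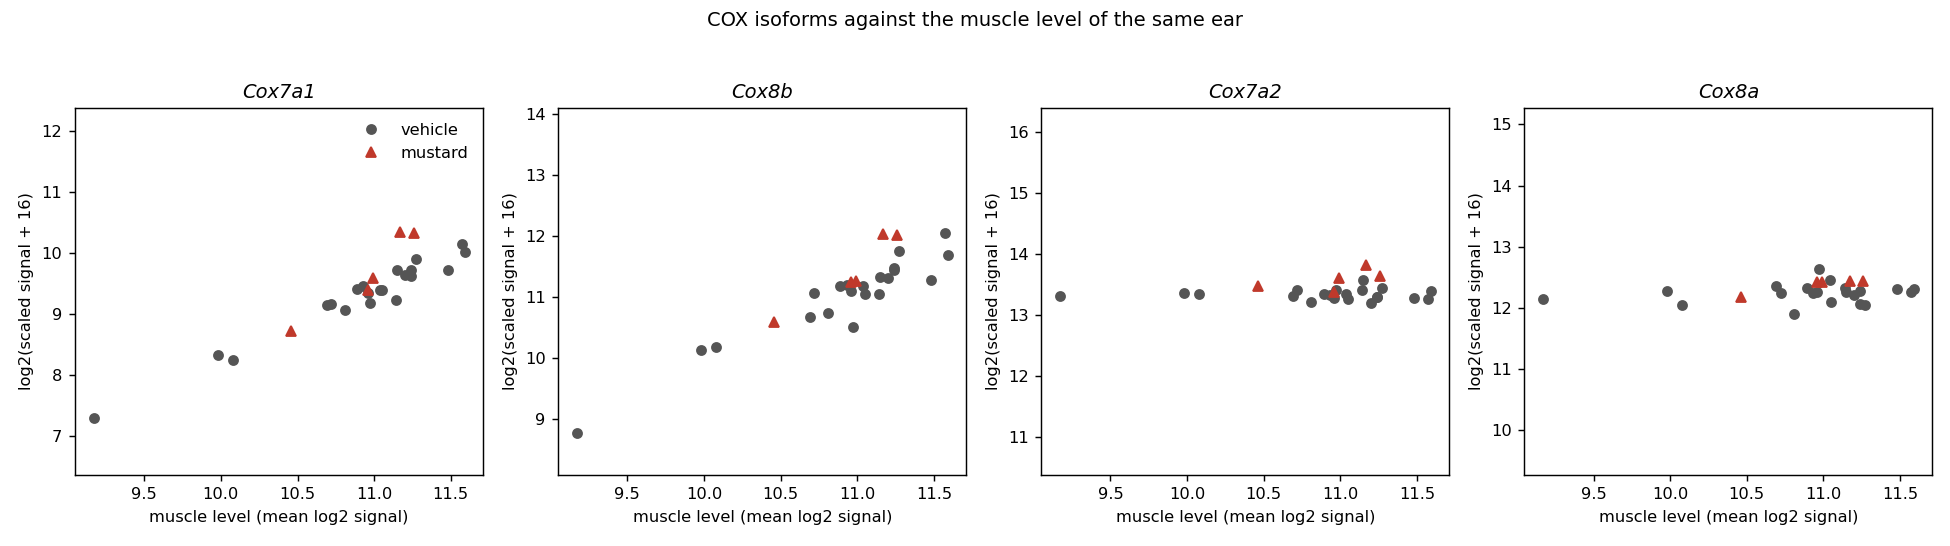
Muscle level of each ear (x axis: mean log2 signal of muscle markers) against log2(scaled signal + 16) of 4 complex IV genes, for vehicle (grey circles) and mustard ears (red triangles); all y axes span the same number of log2 units. The muscle isoforms Cox7a1 and Cox8b climb with the muscle level and Cox7a2 and Cox8a stay flat.

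As a description over the vehicle ears, the members moved together more than other genes: the median pairwise correlation was 0.23 among the 79, 0.30 in complex I, 0.35 in II, 0.27 in III, 0.14 in IV and 0.20 in V, and 0.01 among 2312 genes with a mean of at least 1000. Correlation with the muscle level ran from −0.37 (Cox7a2l) to 0.98 (Cox7a1), with 28 of 79 above 0.5, and the ear medians of the members correlated with it at 0.77, or 0.56 without animal 19.

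The promoter windows of the muscle and common isoforms are set side by side because their slopes on muscle differed, together with Uqcr11, a called rise whose window holds both the NRF1 and the ETS word. They run from 250 bases before to 50 after the RefSeq start on GRCm38.p6, 5′ to 3′ on the gene's strand, and capitals mark matches to the motifs searched.
Cox7a1, chr7:30183921-30184220, + strand: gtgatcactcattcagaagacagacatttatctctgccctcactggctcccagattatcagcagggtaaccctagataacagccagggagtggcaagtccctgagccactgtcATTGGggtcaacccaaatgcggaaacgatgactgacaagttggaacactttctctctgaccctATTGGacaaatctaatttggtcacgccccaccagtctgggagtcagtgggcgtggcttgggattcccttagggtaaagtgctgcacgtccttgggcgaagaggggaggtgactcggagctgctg
Cox7a2, chr9:79759804-79760103, - strand: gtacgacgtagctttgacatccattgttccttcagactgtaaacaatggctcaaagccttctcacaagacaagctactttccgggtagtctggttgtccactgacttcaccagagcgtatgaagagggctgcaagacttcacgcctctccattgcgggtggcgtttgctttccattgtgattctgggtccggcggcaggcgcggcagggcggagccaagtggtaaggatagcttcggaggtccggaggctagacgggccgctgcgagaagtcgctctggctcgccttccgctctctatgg
Cox8b, chr7:140900397-140900696, - strand: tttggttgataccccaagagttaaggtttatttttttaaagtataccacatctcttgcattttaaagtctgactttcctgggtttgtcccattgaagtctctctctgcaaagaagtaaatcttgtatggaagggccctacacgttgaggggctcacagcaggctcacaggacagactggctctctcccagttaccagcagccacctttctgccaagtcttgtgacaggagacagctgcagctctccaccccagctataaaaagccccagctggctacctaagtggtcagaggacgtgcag
Cox8a, chr19:7217567-7217866, - strand: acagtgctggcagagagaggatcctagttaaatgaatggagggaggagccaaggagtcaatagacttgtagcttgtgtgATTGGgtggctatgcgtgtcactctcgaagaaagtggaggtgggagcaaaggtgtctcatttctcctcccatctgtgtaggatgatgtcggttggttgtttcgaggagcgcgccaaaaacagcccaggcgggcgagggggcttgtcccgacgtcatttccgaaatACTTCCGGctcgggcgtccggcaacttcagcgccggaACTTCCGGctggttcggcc
Uqcr11, chr10:80406772-80407071, - strand: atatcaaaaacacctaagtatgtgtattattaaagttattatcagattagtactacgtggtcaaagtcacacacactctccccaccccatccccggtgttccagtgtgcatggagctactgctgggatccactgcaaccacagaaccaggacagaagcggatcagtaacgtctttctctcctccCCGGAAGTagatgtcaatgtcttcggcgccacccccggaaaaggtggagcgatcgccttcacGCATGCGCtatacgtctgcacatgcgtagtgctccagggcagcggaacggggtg
The words searched on both strands were GCGCATGC (core of the nuclear respiratory factor NRF1), CCGGAAGT (ETS factors such as GABPA), AAGGTCA (estrogen-related receptors), AAGATGGC (YY1) and CCAAT. Of the 85 genes 71 had a window. NRF1 words stood in 9 of 71 (12.7%) and in 2.80% of the 27025 promoters of the table, ETS words in 5 (7.04%) and 4%, receptor words in 8 (11.3%) and 4.66%, YY1 words in 8 (11.3%) and 2.88%, and CCAAT in 29 (40.8%) and 37.9%. Cox7a1 has CCAAT on the reverse strand, Cox8a CCAAT and ETS words, Uqcr11 NRF1 and ETS words, and Cox7a2 and Cox8b none of these letters. These are matches of letters, not measured binding.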

How the data were processed

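RNA from 8 mm biopsies of the ear was measured on Affymetrix arrays of types A and B. Per the submitters' processing notes the authors computed the deposited intensity signals with MAS5 (version and scaling not given in the sources used here). Arrays give no depth, and their number limits the precision. Here signals were multiplied so that every array had a 2% trimmed mean of 500, log2(scaled signal + 16) was fitted with limma 3.58.1 (lmFit, eBayes with trend) in R 4.3.3 with statmod 1.5.0, after a filter at a mean scaled signal of 100 over the ears of the fit, and 2-sided p-values were Benjamini-Hochberg adjusted per array (threshold 0.05). A gene with several probe sets took the one of highest mean deposited signal. The alternative over all probe sets of a gene took the medians of their differences and of their adjusted p-values. It is not a test of its own, and an uncalled probe set can end a call there. The 43 ears with mustard or its vehicle formed 1 fit, the ears without mustard another, and vehicle against naive the remaining one over all array A ears. Both fits with naive ears averaged the ears of a naive animal first. Slopes used the vehicle ears. Scripts were tested on simulated data.

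Probe sets were named through GEO's platform annotation, updated by RefSeq; 20393 of array A had 1 symbol, 691 several and 1606 none (14674, 245 and 7656 on B). The genes named are, in mustard against vehicle the 3 largest called rises and falls of each complex, core subunits and tissue isoforms; elsewhere up to 4 called rises and falls; up to 3 per list and direction by adjusted p. The labels number left and right ears of an animal alike: over 17 pairs their deviations correlated at 0.174 on average (−0.105 to 0.453), against −0.00466 for different animals, so the ears are paired. P-values measure the spread between these ears. Members, lists and tests were chosen with earlier results of these data known.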

Additional observations from a re-analysis of the deposited data

Results flagged for a closer look

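Of 112 groups of 4 to 6 ears examined, over ear medians and 10 genes, 11 held an ear set apart by Dixon's test, which chance gives in about 1 of 20. In dimercaprol-then-mustard ears the median of complex II was −0.15 in animal 9 (others 0.02 to 0.10) and that of complex V −0.23 in animal 6 (others −0.08 to 0.01), where Uqcrq was also low at 3867 (others 4629 to 5026). Cox8a was 5588 in animal 8 of that group (others 4361 to 4590). In the mustard group Cox8a was 4625 in animal 1 (others 5449 to 5523). In indomethacin-then-mustard ears Atp5c1 was 6154 in animal 18 (others 5103 to 5269) and Cox7a2 was 12410 in animal 16 (others 9394 to 10460). Among ears with a drug alone, the complex IV median was 0.10 in indomethacin animal 515 (others −0.08 to −0.05), Atp5c1 was 6422 in indomethacin animal 512 (others 5950 to 6021), Atp5md was 939.7 in dimercaprol animal 506 (others 1170 to 1199) and Atp5k was 7933 in the same ear (others 3658 to 4020).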

How the results depend on the processing

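Counts below are members called on array A. Without rescaling, 49 were called with mustard against vehicle, nearly all lower, and against mustard alone 73 (dimercaprol), 7 (indomethacin) and 53 (octylhomovanillamide), all higher. Against vehicle 3 were called for indomethacin and 0 for octylhomovanillamide, and 2 had a muscle slope. The mustard differences turned negative for Ndufb1 (−0.14), Ndufa2 (−0.18), Sdhaf1 (−0.14), Sdhaf4 (−0.27), Uqcrq (−0.10), Uqcrb (−0.22), Uqcr11 (−0.27), Cox6c (−0.24), Cox5a (−0.24), Atp5k (−0.01), Atp5mpl (−0.26), Ndufs1 (−0.52), Ndufv1 (−0.57), Sdhb (−0.57), Cox4i1 (−0.49), Atp5b (−0.48), Cox7a2 (−0.38), Cox8a (−0.49), Cox6b1 (−0.27) and Ndufa4 (−0.27). Against mustard alone, Atp5md (0.18), Uqcrb (0.41) and Ndufa2 (0.44) turned positive with dimercaprol, Ndufa13 (0.03) and Ndufa2 (0.11) with indomethacin, and Atp5md (0.05), Uqcrb (0.28) and Ndufa5 (0.27) with octylhomovanillamide. The unscaled values carry each array's brightness by construction.

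Quantile normalization gave 12, 3 and 6 calls for dimercaprol, indomethacin and octylhomovanillamide against mustard alone. It gave 12 for vehicle against naive (9 higher, 3 lower) and 23 for the muscle slope. It left Cox7a2 at 0.00 with mustard and Uqcrb at 0.02 with dimercaprol against mustard. Scaling on shared probe sets gave 10, 2 and 7, and 2 and 0 for dimercaprol and octylhomovanillamide against vehicle. Indomethacin against mustard alone had 5 calls without the filter and 3 with the muscle covariate, and dimercaprol against vehicle had 3 with a filter at 300. The muscle covariate gave 3, 27 (14 higher, 13 lower) and 2 calls against vehicle for dimercaprol, indomethacin and octylhomovanillamide. The Gapdh covariate gave 18 with mustard, 9, 0 and 1 against mustard alone and 3 for dimercaprol against vehicle. Brightness gave 20 with mustard and 1, 0 and 1 against mustard alone. With either of these covariates the shares of all probe sets called against mustard alone were also smaller than in the main fit.

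With the animal as a replicate block held fixed, 15 were called with mustard, 0 for each drug against mustard alone, and 0, 14 (8 higher, 6 lower) and 0 against vehicle in the same order of drugs. With a random replicate block (consensus correlation 0.137) indomethacin against mustard had 5, and the other counts stayed within 1.5 times. Without the mustard ears of animals 5 and 37 there were 16 with mustard and 4, 0 and 1 against mustard alone. Over all probe sets 6.1% were then higher and 3.38% lower with dimercaprol, 0.441% and 0.0909% with octylhomovanillamide, and none with indomethacin. Without both ears of animal 19, chosen after seeing the data, indomethacin against mustard had 1. Leaving out 1 ear at a time gave 28 to 38 with mustard, 16 to 25, 0 to 22 and 10 to 26 against mustard alone, 0 to 2, 19 to 28 and 0 to 1 against vehicle (the 1 without octylhomovanillamide animal 33 was a fall), 17 to 24 for vehicle against naive and 4 to 16 for the muscle slope. For omissions of 1 ear the share over all probe sets was not taken. The comparisons without mustard and the Gapdh slope had 0 calls under every setting run. The causes of these changes were not tested. Cox6b2, with a mean scaled signal of 119, is the dimmest gene called.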

Other observations

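Atp5k, looked at after its values were seen, fell on both sides of a gap in the vehicle ears: 8 ears read 3572 to 5015 and 13 read 6243 to 8665. Left and right ears of an animal did not always share a side. In naive animal 502 they read 8773 and 3201, and in animal 22 the vehicle ear read 3757 and the indomethacin-then-mustard ear 7299. The gene's other probe sets on array A did not follow the chosen one over the vehicle ears (correlations of −0.07 and −0.32), and both rose with mustard (0.52 ± 0.11 and 0.50 ± 0.13).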
